A study of Mus musculus with 2 samples.

Results

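Among 5488 mammary CD8 T cells, 550 carried RNA of Ly6c2, the gene of a surface protein of memory T cells, together with RNA of at least 2 of 4 further memory genes. These 4 genes were Cxcr3, a receptor for interferon-induced chemokines, Eomes, a transcription factor of memory cells, Gzmm, a granule protease, and Ccr2, a chemokine receptor. The cells were chosen by measured values. A T cell was a barcode with at least 500 genes, at least 1000 UMIs (molecular tags that count captured RNA molecules), under 10% mitochondrial UMIs and a UMI of Cd3d, Cd3e or Cd3g, the genes of the CD3 chains. A member needed at least 1 Ly6c2 UMI, UMIs of at least 2 of the 4 genes, and 0 UMIs of each of 6 genes: Itga1 (a collagen-binding integrin of resident cells), Pdcd1 (the inhibitory receptor PD-1), Klrg1 (a receptor of effector cells), Fcer1g (an adaptor of innate receptors), Car2 (a carbonic anhydrase) and Cdh1 (E-cadherin). The rule was met by 254 of 2991 T cells of the parous library and 296 of 2497 of the virgin library. The cells had been proposed as virtual memory-like, a label that the genes outside the rule met in part, and they are called Ly6c2-gated cells here.

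Virtual memory T cells are CD8 T cells that take on a memory phenotype without having met a foreign antigen. They depend on interleukin 15, whose receptor uses the chain encoded by Il2rb, and on the transcription factor Eomes, and they can make interferon gamma in response to interleukins 12 and 18. In mice they are commonly told from antigen-experienced memory cells by high CD44 and CD122 with low CD49d, the integrin chain encoded by Itga4.

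Live cells positive for CD45, the T cell receptor beta chain and CD8a had been taken by sorting from the 4th mammary fat pads of untreated C57BL/6 mice, the fat tissue in which the gland lies. The parous library came from mice with several pregnancies and the virgin library from mice with none, each from a pool of at least 5 mice, and no source used here gives their ages. With 1 pooled library per group, differences between the libraries have no replicate check, no test was made, and parity cannot be told apart from the library. All intervals are exact 95% intervals and cover counting error only.

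The libraries differed in depth. The parous library held 14676415 UMIs in 4927 barcodes and the virgin library 20166425 UMIs in 2526 barcodes, and the cell filter left out 1908 parous and 15 virgin barcodes. The parous Ly6c2-gated cells held 1323897 UMIs, with a median of 4701.5 per cell (1331 to 14357), and the virgin ones 2304310 UMIs, with a median of 6912 (1858 to 26803). The median mitochondrial share of their UMIs was 1.07% and 1.03%. Of all barcodes 18 occurred in both libraries, none of them a member in both, and 1 member barcode was any barcode of the other library.

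Ly6c2 has a near copy, which bears on how reads were assigned. Ly6c2 lies on chromosome 15 (75108158 to 75111970, minus strand, GRCm38), and its neighbour Ly6c1 at 75044018 to 75048830 on the same strand. Their longest transcripts were 95.0% identical, and 134 of 777 stretches of 90 bases in Ly6c2 transcripts (17.2%) also occurred in Ly6c1 transcripts, so part of the reads could not be told apart by sequence. None of these stretches occurred in Ly6a, another gene of the family. The members' RNA was nonetheless counted almost wholly as Ly6c2, with 2293 CPM (its UMIs in every 1000000 UMIs summed over the set) in parous members and 2711 CPM in virgin ones, against 15.9 and 12.2 CPM for Ly6c1, whose longest transcript is of like length (844 bases, against 822 for Ly6c2). The 250 bases before each start site are shown because the neighbours differed so much in level. They are from RefSeq on GRCm38.p6, minus strand, written 5′ to 3′, at chr15:75111972-75112221 for Ly6c2 and chr15:75048838-75049087 for Ly6c1. Capitals mark each stretch of at least 15 bases that occurs in both.
Ly6c2: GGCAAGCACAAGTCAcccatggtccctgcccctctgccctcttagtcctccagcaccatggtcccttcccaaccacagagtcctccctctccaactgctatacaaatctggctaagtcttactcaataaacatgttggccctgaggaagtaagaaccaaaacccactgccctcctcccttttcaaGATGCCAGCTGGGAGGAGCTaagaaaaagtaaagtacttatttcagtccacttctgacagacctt
Ly6c1: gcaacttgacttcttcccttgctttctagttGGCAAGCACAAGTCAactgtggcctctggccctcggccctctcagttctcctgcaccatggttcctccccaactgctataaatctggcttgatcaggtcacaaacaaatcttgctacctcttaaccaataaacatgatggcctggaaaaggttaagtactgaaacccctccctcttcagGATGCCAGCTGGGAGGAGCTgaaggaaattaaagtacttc
The shared stretches covered 35 of the 250 bases. The aligned windows were 59.0% identical over 290 columns, with gaps counted as differences. One shared stretch opens the Ly6c2 window but lies further into the Ly6c1 window, so part of the gaps comes from where the windows begin. This identity therefore cannot be set against that of the transcripts. With the other listed Ly6c1 start site the identity, counted in the same way, was 48.3%. The other listed Ly6c2 start site was not aligned.

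The values that chose the cells are given first, as a description. The parous members held 303 CPM of Cxcr3, 184 of Eomes, 304 of Gzmm and 168 of Ccr2, and the virgin members 356, 135, 182 and 181 CPM. A Cxcr3 UMI was present in 79.1% of the parous cells and 88.9% of the virgin cells, and Eomes in 53.9% and 57.4%. Gzmm was found in 57.9% and 44.6%, and Ccr2 in 54.3% and 58.8%. Most members sat at the edge of the rule: 162 of 254 parous and 179 of 296 virgin members had exactly 2 of the 4 genes, and 23 and 30 had all 4. Just outside lay 264 parous and 238 virgin cells with exactly 1 of the 4 and none of the 6 excluded genes. These held 1834 and 1949 CPM of Ly6c2 against 2213 and 2453 CPM in the members with exactly 2, and 418 and 370.5 CPM of Il2rb against 449 and 483 CPM. The exclusion took away 250 of 504 parous and 375 of 671 virgin cells that met the positive part. Pdcd1 alone removed 65 parous and 84 virgin cells and Klrg1 alone 44 and 81.

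Ly6c2-gated cells made up 8.49% of parous T cells (interval 7.52 to 9.55%) and 11.9% of virgin T cells (10.6 to 13.2%), a ratio of 0.716 (0.603 to 0.850). The rule asks for several UMIs and so moves with depth. With virgin UMIs thinned at random to the parous median, the virgin share was 10.2% and the ratio 0.835 (0.699 to 0.997). With every T cell thinned to 1400 UMIs the shares were 3.59% and 4.51% and the ratio 0.796, with an interval (0.603 to 1.05) that spans 1, and 10 random draws gave ratios of 0.691 to 0.982. The parous share was thus the lower in each of the 10 settings shown in the plot of shares by setting, by an amount that shrank at equal depth.

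**Figure D1:**
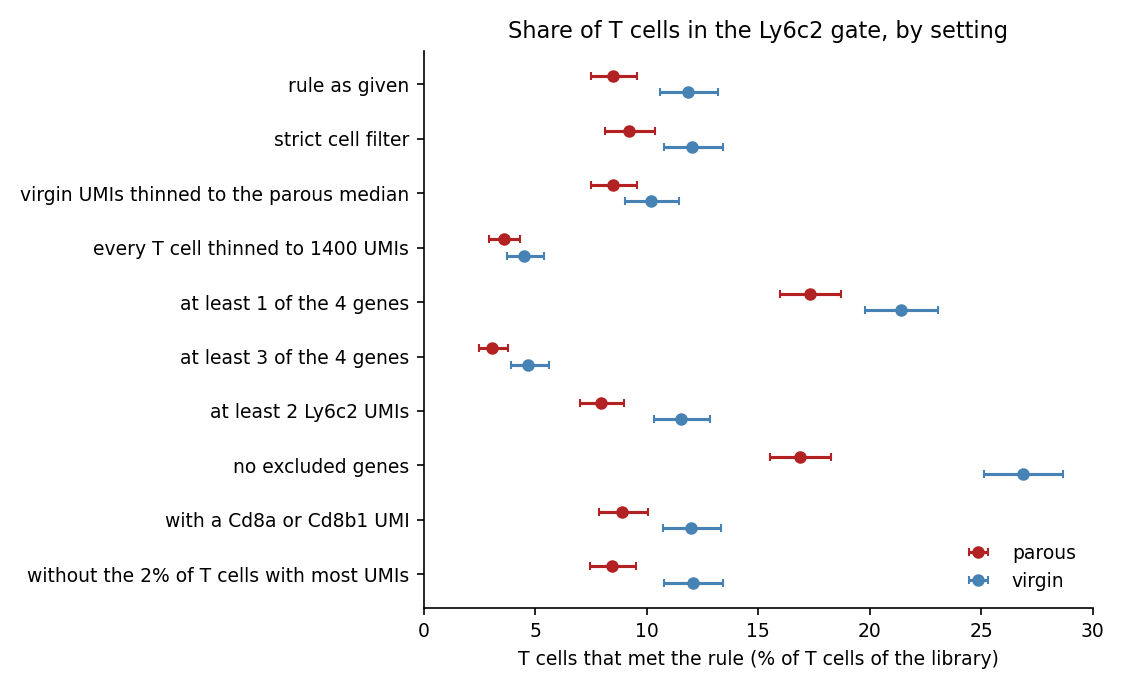
Share of T cells that met the rule (x axis, percent of the T cells of the library) under the rule as given and 9 other settings (y axis), for the parous (red) and virgin (blue) library; points are shares and bars exact 95% intervals for counting error. The parous point lies below the virgin point in each setting, from 3.08% against 4.69% with at least 3 of the 4 genes to 16.9% against 26.9% with no excluded genes.

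Genes outside the rule showed a memory phenotype. Detection, the share of cells holding a UMI of a gene, is given at a common depth of 2600 UMIs drawn from each cell, which kept 241 parous and 291 virgin members. Naive-like cells served as background: 261 parous and 587 virgin T cells with no UMI of Ly6c2, of the 4 genes or of the 6 excluded ones, but with a UMI of Lef1 and of a lymph node homing gene, Ccr7 among them. Il2rb was found in 63.1% of parous (56.6 to 69.2%) and 64.9% of virgin members (59.2 to 70.4%), against 19.7% and 15.2% of naive-like cells. It did not set the parous members apart from the other T cells, which had it in 60.3% and 42.6%. Cd44 was found in 30.7% and 30.9% of members, against 3.77% and 4.83%. Tbx21, which encodes T-bet, a transcription factor of effector and memory cells, was found in 33.2% and 31.6%, against 0.837% and 0.345%. Klrk1, the gene of the activating receptor NKG2D, was found in 32.8% and 41.9% of members and in none of the 239 and 580 naive-like cells left after thinning. Il18r1 or Il18rap, the chains of the interleukin 18 receptor, were found in 31.1% and 34.4% of members, against 6.69% and 7.07%. The CD8 lineage was clear, with Cd8b1, the beta chain of CD8, in 86.3% of parous and 84.9% of virgin members and Cd4 in none.

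The feature that sets virtual memory cells apart from other memory cells was met less well. Itga4, expected to be low, was found in 45.6% of parous (39.2 to 52.2%) and 40.5% of virgin members (34.9 to 46.4%), above the 24.7% and 26.7% of naive-like cells. For comparison, T cells with a UMI of both Klrg1 and Ly6c2 (136 parous and 328 virgin cells, called Klrg1 cells) had Itga4 in 56.7% and 64.2%. The members thus stood between the naive-like and the Klrg1 cells in this gene, as the plot of detection in the 3 sets shows. The other T cells had Itga4 in 37.1% and 43.5%, below the parous members and slightly above the virgin ones. T cells with a UMI of Ikzf2 and of a Klra gene, a set used again below, had Itga4 in 21.8% and 34.0%, less often than the members. Granzyme genes also divided the sets: Gzmb was seen in 13.7% of parous members and 14.1% of virgin ones, against 50.8% and 71.7% of Klrg1 cells. Gzma was found in 9.96% and 3.09% of members, against 35.0% and 43.3%. Klrg1 cells had Cd44 in 27.5% and 29.3%, Tbx21 in 33.3% and 52.0%, and Klrk1 in 33.3% and 49.8%. These memory genes were thus not particular to the members.

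**Figure D2:**
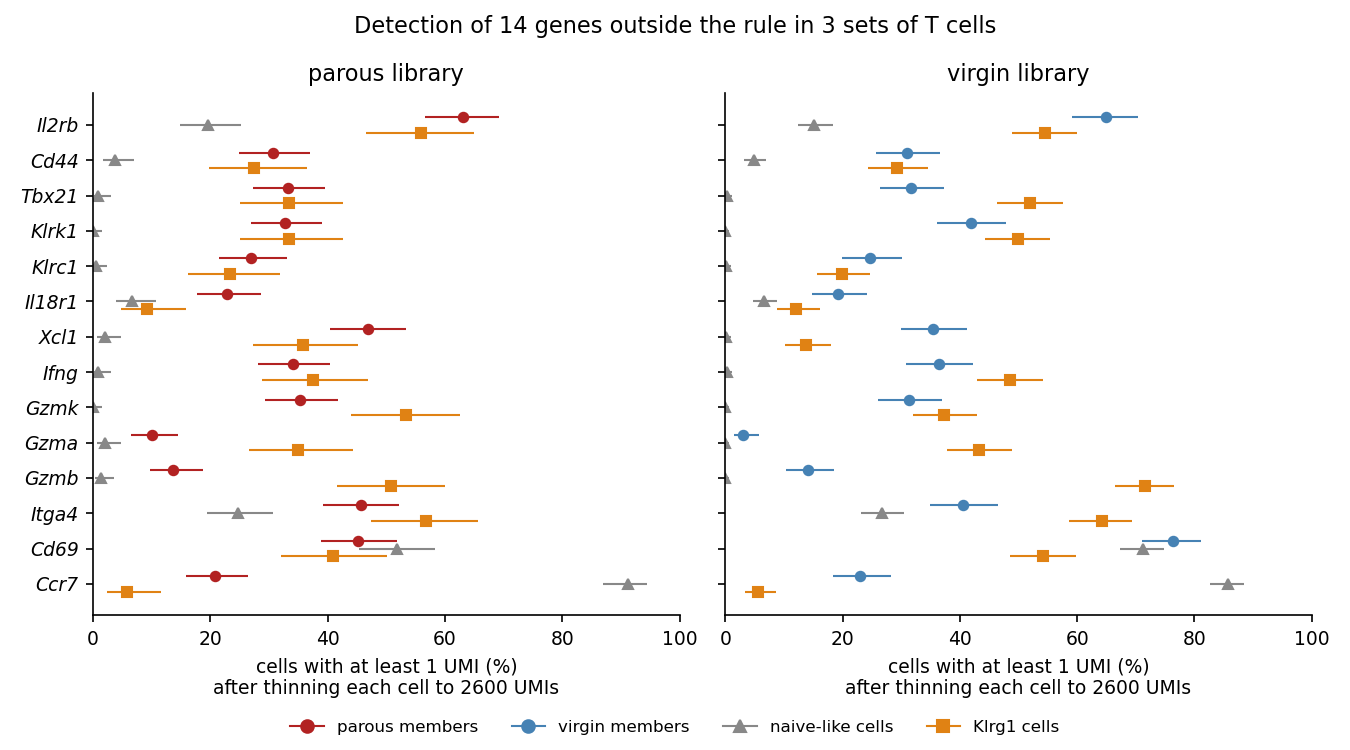
Cells with at least 1 UMI (x axis, percent) of 14 genes outside the rule (y axis) after thinning each cell to 2600 UMIs, in Ly6c2-gated members (circles), naive-like cells (grey triangles) and Klrg1 cells (orange squares), with exact 95% intervals for counting error as bars. Ccr7 helped to choose the naive-like cells; Il2rb, Klrk1, Xcl1 and Ifng lie far above the naive-like cells, and Gzma and Gzmb below the Klrg1 cells, in both libraries.

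The gene lists were read against naive-like cells. Here and below a gene counts as higher or lower from a 1.5-fold ratio on. Of 9074 measured genes in the parous library 26.2% were higher and 11% lower in members than in naive-like cells, and of 10832 in the virgin library 21.1% and 11.3%. Of 22 virtual memory markers outside the rule, 18 were higher and 2 lower in the parous members, with a median log2 ratio of 2.24, and 19 were higher and 2 lower in the virgin members, with a median of 2.58. The list of circulating effector genes had 15 of 17 and 17 of 19 measured genes higher. The S100, annexin and galectin list, genes of calcium and sugar-binding proteins that memory cells carry, had 13 of 15 higher in each library. The list of naive and recirculation genes went the other way, with 21 of 26 and 22 of 26 lower, several of which the choice of naive-like cells had fixed. MHC class I genes were higher by less, with 9 of 16 and 5 of 16 past 1.5-fold and medians of 0.62 and 0.39. Set against all other T cells instead, the 22 virtual memory markers differed far less. In the parous members 4 were higher and 2 lower, with a median log2 ratio of 0.053. In the virgin members 7 were higher and 0 lower, with a median of 0.45. For this contrast no share of all measured genes is given for each library alone. Whether these counts exceed such a share therefore cannot be said.

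RNA of most other cell types was scarce in the members. The 6 myeloid markers summed to 39.3 and 27.8 CPM, against 32.2 and 26.01 CPM in the other T cells, with a UMI in 15.4% and 15.5% of members, and Adgre1 and S100a8 at 0 in both libraries. The 4 gamma-delta T cell markers summed to 15.1 and 30.4 CPM, with a UMI in 5.91% and 10.5% of members, against 91.1 and 47.0 CPM in the other T cells. The 4 CD4 T cell markers summed to 28.7 and 27.8 CPM, with Cd4 at 0. The part of such RNA in the results was not tested. None of the 3 fibroblast, 3 endothelial or 3 erythroid markers had a UMI in a member of either library, and the 7 mammary epithelium markers summed to 3.02 and 4.77 CPM. Of the 4 B cell markers only Ighm had UMIs (72.5 and 74.6 CPM, with 81.8 and 113 CPM in the other T cells), and Cd79a and Ms4a1 were at 0. Ncr1, a defining gene of natural killer cells, was at 0, while the other 4 markers of natural killer and innate-like T cells summed to 264 and 217 CPM, against 1250 and 271 CPM in the other T cells. Zbtb16 and Trav11, which mark invariant natural killer T cells, were at 0 in both libraries.

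Against all other T cells, few genes stood apart in both libraries. Of 2592 genes with at least 50 CPM in both libraries, 0.694% were higher and 0.424% lower in the members of both. The member cells had been chosen on part of this contrast, so these ratios describe them. Ranked first by the smaller of its ratios in the libraries was Ms4a4c, of a family of membrane proteins, with 107 CPM in parous members against 41.8 in the other T cells, and 154 against 67.9 CPM in the virgin library. It was not particular to the members: T cells with a UMI of Ikzf2 and of a Klra gene (354 parous and 102 virgin cells, of which 9 and 16 were members) held 62.8 and 227 CPM of Ms4a4c. Gpr183, a receptor for oxysterols that guides cell position in lymphoid tissue, stood at 514 against 251 CPM and 715 against 327 CPM. Il18r1 and Il18rap were 2.02-fold and 2.27-fold higher in the parous and 1.91-fold and 1.76-fold higher in virgin ones. Klrg1 cells held more Il18rap than the members (81.9 against 65.0 CPM parous, 92.5 against 75.5 CPM virgin), and the virgin cells with Ikzf2 and a Klra gene held more Il18r1 (142 against 121 CPM) and more Il18rap (88.0 CPM). Cxcr4, the receptor for CXCL12, was 1.91-fold and 1.79-fold higher. Other genes named by the rule of size were Dipk2a, Lyst, Ctla2a, Samd3, Cobll1 and Lmna.

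The genes lowest in the members included granzyme genes and genes of naive cells. Gzma stood at 96.7 CPM in parous members against 1763 CPM in the other T cells, 18.2-fold lower, and at 53.8 against 648 CPM in the virgin library, 11.997-fold lower. Gzmb was 5.16-fold and 2.78-fold lower, and Fgl2, which encodes a secreted immune regulator, 2.28-fold and 1.76-fold lower. Both granzymes were higher in the members than in naive-like cells, where Gzma had 7.85 and 0.474 CPM. The naive cell genes Lef1, Dapl1 and Ccr7 were also lower, Ccr7 with 221 against 337 CPM and 270 against 537 CPM. Inpp4b, a lipid phosphatase gene, was 2.49-fold and 2.62-fold lower.

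The members were not uniform, and Gzmk and Ccr7 divided them. Gzmk encodes a granzyme of memory cells with low killing activity and Ccr7 the chemokine receptor for lymph node entry. In thinned cells Gzmk was found in 18.0% of the parous members with a Ccr7 UMI and in 39.8% of those without, and in 5.97% and 38.8% of the virgin ones. Without thinning, 106 parous and 101 virgin members had a Gzmk but no Ccr7 UMI, 49 and 72 a Ccr7 but no Gzmk UMI, 20 and 28 had both, and 79 and 95 had neither. This division was chosen after the values were seen, and it moves with depth: the median was 4393.5 UMIs per cell on the Gzmk side and 6800 on the Ccr7 side in the parous, and 6080 against 10231.5 in the virgin library.

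The Gzmk side carried chemokine and granzyme genes. Ccl4, which encodes an inflammatory chemokine, stood at 816 CPM on the Gzmk side and 39.5 CPM on the Ccr7 side of the parous members, and at 1208 and 153 CPM in the virgin ones. Gzma (150 against 14.1 CPM, and 174 against 3.82 CPM) and Gzmb (185 against 22.6 CPM, and 219 against 30.6 CPM) lay on the same side. The Gzma levels rested on few cells, since 5 cells held 51.6% of the Gzma UMIs of all parous members and 88.7% of those of all virgin members. Ifng, the interferon gamma gene, also lay on the Gzmk side, 3.38-fold and 3.10-fold higher. Zeb2, a transcription factor of effector cells, was 3.93-fold and 4.31-fold higher there. Itga4, the gene that the label turns on, differed as well. It stood at 361 and 364 CPM on the Gzmk side and at 96.0 and 108 CPM on the Ccr7 side, there from only 34 and 85 UMIs. Naive-like cells held 129 and 138 CPM, and whether the Ccr7 side lay below them beyond counting error was not tested. On that Ccr7 side Satb1, a chromatin organiser of naive cells, stood at 426 and 353 CPM, against 75.1 and 55.4 CPM on the Gzmk side, and Dapl1 and Actn1 lay there too. Il2rb did not divide the members in this way, with 497 CPM on the Ccr7 side in both libraries and 363 and 462 CPM on the Gzmk side. Nor did Ly6c2, with 2321 and 2166 CPM against 2075 and 2907 CPM. Itga4 was thus lower on the Ccr7 side than on the Gzmk side in both libraries, in the 49 parous and 72 virgin members with a Ccr7 but no Gzmk UMI.

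**Figure D3:**
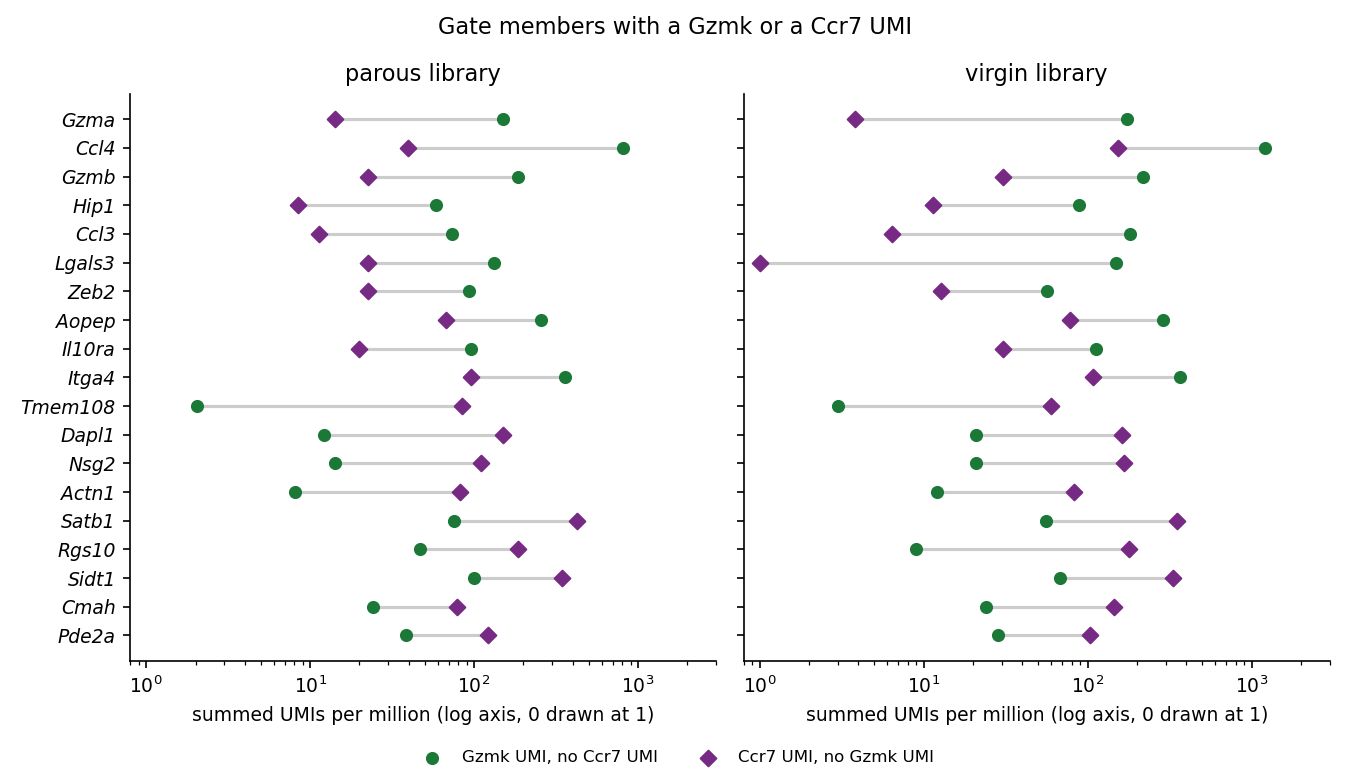
Summed UMIs per 1000000 (x axis, log scale, 0 drawn at 1) of the 10 genes with the largest and 9 of those with the smallest ratio between members with a Gzmk but no Ccr7 UMI (green circles) and members with a Ccr7 but no Gzmk UMI (purple diamonds), in each library. The genes were ranked by the smaller of the 2 libraries' ratios, so both libraries show the same order of the sides; Lgals3 had 0 UMIs on the Ccr7 side of the virgin members.

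Most memory genes stood at like levels in the members of both libraries. Of 9957 genes with at least 10 UMIs over both sets of members, 7.28% were higher and 16.4% lower in the parous members, and the median log2 ratio of all was -0.10. Of the 22 virtual memory markers 2 were higher (Xcl1, 369 against 240 CPM, and Il12rb2, a chain of the interleukin 12 receptor, 81.6 against 50.8 CPM) and 1 was lower. Il2rb stood at 436 and 480 CPM, Cd44 at 137 and 150, Tbx21 at 165 and 172, and Nkg7, a granule protein gene, at 2018 and 2021 CPM. Of the 16 MHC class I genes 0 were past 1.5-fold in either direction, and of the 20 genes of interleukin 2 and 15 receptor signalling 1 was higher and 1 lower.

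Naive and recirculation genes were lower in the parous members at the deposited depth, but not more often than all genes at equal depth. The list had 26 measured genes, of which 0 were higher and 9 lower (34.6% against 16.4% of all genes), and its median log2 ratio was -0.44. Among these 9 were Lef1 (114 against 176 CPM), a transcription factor of naive cells, and Klf2 (937 against 1416 CPM), which drives the genes of tissue exit. S1pr1, the exit receptor that Klf2 drives, stood at 105 and 107 CPM. With virgin UMIs thinned before the rule was applied, the median was -0.26 and 4 of 26 were lower, while 18.4% of all 9391 genes measured at that depth were lower. In the other T cells the list's median was -0.67, in naive-like cells -0.20 and in Klrg1 cells 0.21. The median over all measured genes was -0.13 in each of these sets.

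Type I interferon response genes were lower in the parous members too. Among 42 measured genes 0 were higher and 17 lower (40.5%, against 16.4% of all genes), and the median was -0.46. Sp100, a nuclear body gene, stood at 245 against 398 CPM and Ifi47, a GTPase gene, at 122 against 195 CPM. Ifit3, an antiviral gene, stood at 11.3 against 40.8 CPM, and 63.8% of its virgin UMIs came from 5 cells. The list as a whole did not rest on few cells, with 8.98% of its parous and 9.25% of its virgin UMIs in the top 5 cells. Some members of the list went the other way within 1.5-fold, such as Isg15, a ubiquitin-like protein gene, with 91.4 against 75.9 CPM. In the members with at least 3 of the 4 genes the median was -0.035, with 8 genes higher and 7 lower. Of all 8373 genes measured at that setting 9.82% were higher and 21.4% lower. With virgin UMIs thinned to the parous depth it was -0.48. The median was -0.45 in the other T cells and -0.19 in naive-like cells.

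Genes of activation went both ways. Cd69, which encodes a surface protein of recent activation that holds T cells in tissue, stood at 357 CPM in parous and 735 CPM in virgin members and was found in 45.2% (38.8 to 51.7%) and 76.3% (71.0 to 81.1%) of thinned members. Naive-like cells differed in the same direction, with 51.9% and 71.2%, and whether the gap was larger in the members was not tested. Myc, a growth regulator, was 3.51-fold lower in the parous members (33.2 against 118 CPM), and Fos stood at 823 against 1443 CPM. The orphan receptor genes Nr4a1 (529 against 333 CPM) and Nr4a2 (607 against 348 CPM), early targets of receptor signalling, were higher. So were Fosl2, an AP-1 gene (161 against 75.9 CPM), and Crem, a target of cyclic AMP (101 against 43.0 CPM). Myc and Crem were not particular to the members. Myc stood at 54.1 against 129 CPM in naive-like cells and at 39.1 against 101 CPM in the other T cells. Crem stood at 112 against 32.5 CPM and at 127 against 40.1 CPM in these sets. The list counts that follow are at the deposited depth, and their values at equal depth are not given here. Of the 25 genes of the T cell receptor signalling list 0 were higher and 7 lower (28%, against 16.4% of all genes). Among the 7 were Vav1, Prkcq and Lcp2, which relay the signal. Of the 26 residency genes outside the rule 8 were higher (30.8%, against 7.28% of all genes) and 5 lower (19.2%). Litaf (79.3 against 28.2 CPM) and Hic1 (12.1 against 2.17 CPM), a repressor found in resident cells, were at the upper end. Itgae, the defining integrin of epithelial resident cells, had 3.02 and 1.30 CPM. The residency list's median log2 ratio was 0.13 in the members and 0.50 in the other T cells. It was 0.06 in naive-like cells and -0.16 in Klrg1 cells. Of the 18 measured genes of the TGF-beta list 5 were higher (27.8%) and 1 lower (5.56%). Pmepa1, a target of that pathway, was 2.83-fold higher (50.6 against 17.8 CPM, in 42 and 25 cells). In the members with at least 3 of the 4 genes it was slightly lower in the parous library, with a log2 ratio of -0.13. The TGF-beta list's median log2 ratio was 0.27 in the members, 0.55 in the other T cells and 0.58 in Klrg1 cells. Over all measured genes the medians were -0.10, -0.13 and -0.13. Pmepa1 stood at 108 against 21.9 CPM in the other T cells and at 58.5 against 3.07 CPM in Klrg1 cells, ratios above that of the members.

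The largest ratios belonged to genes of division but rested on few cells. Of 26 measured cell cycle genes 15 were higher (57.7%, against 7.28% of all genes) and 1 lower in the parous members. Their median log2 ratio was 1.01. For Hist1h2ae, a histone gene with 43.8 against 1.30 CPM, 5 cells held 91.4% of the parous UMIs, and for Birc5, a gene of chromosome separation, 87.9%. A UMI of Mki67, Top2a or Ccna2 was found in 25 of 254 parous (9.84%, 6.47 to 14.2%) and 26 of 296 virgin members (8.78%, 5.82 to 12.6%), shares whose intervals overlap. At 2600 UMIs per cell these shares were 6.22% (3.53 to 10.1%, 15 cells) and 3.09% (1.42 to 5.79%, 9 cells), with overlapping intervals too. Without these cells the list's median was 0.19, with 2 of 15 genes higher and 3 lower. At that setting 7.11% of all genes were higher and 17.8% lower. In the other T cells the list went the other way, with 0 of 30 genes higher, 26 lower and a median of -1.55. In Klrg1 cells 0 of 30 were higher and 20 lower (median -0.68), and in naive-like cells 3 of 16 were higher and 4 lower. Slc16a10, which encodes a transporter of aromatic amino acids and thyroid hormone (chromosome 10, 40033532 to 40142258), had 37.8 against 3.47 CPM, and its UMIs were spread over 29 parous and 8 virgin members. Its log2 ratio was 3.37 in the members (interval 2.36 to 4.73), 2.71 in the other T cells and 0.67 in naive-like cells. Of natural killer receptor genes 1 of 17 was higher (5.88%) and 6 lower (35.3%, against 16.4% of all genes), at the deposited depth. For Klra1, with 5.29 against 26.04 CPM, the UMIs came from 3 and 8 cells.

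**Figure D4:**
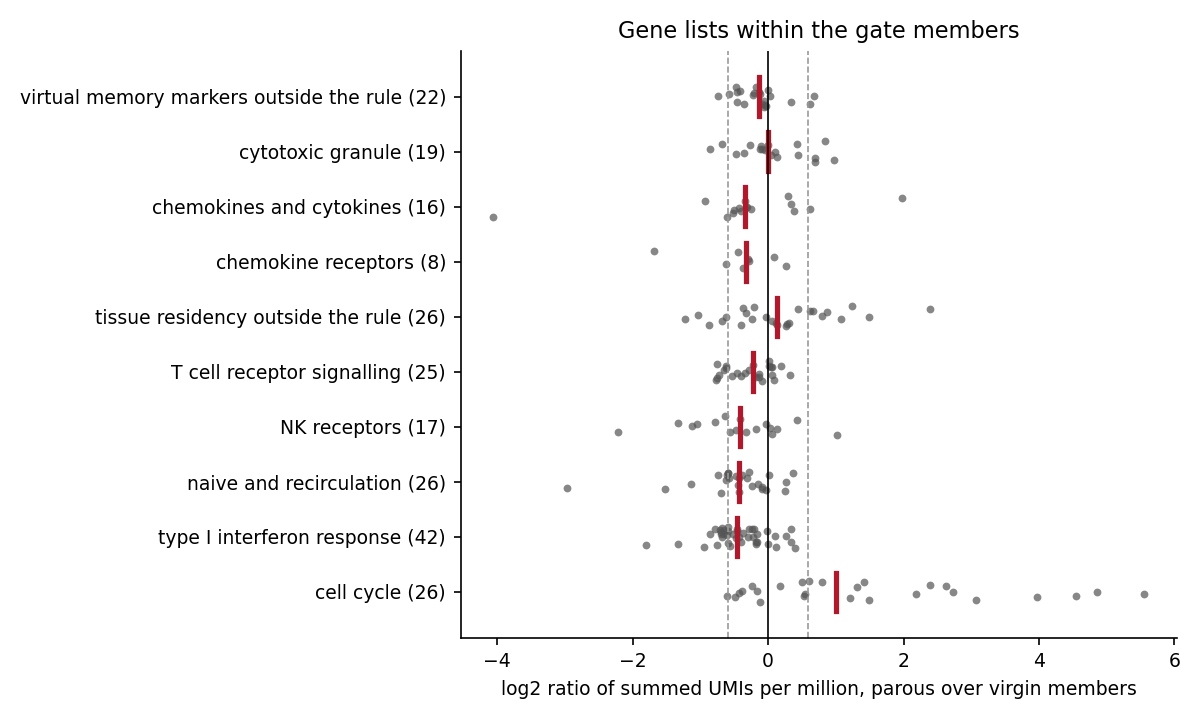
Log2 ratio of summed UMIs per 1000000, parous over virgin members (x axis), of each measured gene (points, placed at random height within a row) in 10 gene lists (y axis, number of measured genes in brackets); red bars are list medians and dashed lines 1.5-fold. The type I interferon and the naive and recirculation lists have no gene past the right dashed line, and the cell cycle list has 15.

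The T cell receptor was not part of the rule, and Trbv13-3 was singled out after its values were seen. A beta chain V segment was assigned (from 2 or more UMIs that made up 2/3 or more of the Trbv UMIs in that cell) in 209 of 254 parous and 266 of 296 virgin members. Trbv13-3 was carried by 38 of 209 parous members (18.2%, 13.2 to 24.1%) and 10 of 266 virgin members (3.76%, 1.82 to 6.80%). Among the other T cells its shares were 7.56% and 5.15%, and among naive-like cells 6.34% and 8.89%. Of all parous T cells with Trbv13-3, 38 of 192 were members (19.8%, 14.4 to 26.1%), and of the virgin ones 10 of 107 (9.35%, 4.57 to 16.5%), against 8.49% and 11.9% of all T cells. The other segments of members ran up to 9.09% (parous) and 11.3% (virgin), both for Trbv3, as the plot of Trbv segments shows. The effective number of segments was 13.02 in parous and 16.1 in virgin members, and 14.8 and 16.0 in the other T cells.

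Trbv13-3 belongs to a group of close copies on chromosome 6, plus strand. The first 300 of the 340 coding bases of Trbv13-3 (41130147 to 41130585) and of its neighbour Trbv13-2 (41121396 to 41121832) are shown from the GRCm38 transcripts of GENCODE, from the start codon on, because the count depends on telling them apart. Capitals mark bases that differ between them.
Trbv13-3: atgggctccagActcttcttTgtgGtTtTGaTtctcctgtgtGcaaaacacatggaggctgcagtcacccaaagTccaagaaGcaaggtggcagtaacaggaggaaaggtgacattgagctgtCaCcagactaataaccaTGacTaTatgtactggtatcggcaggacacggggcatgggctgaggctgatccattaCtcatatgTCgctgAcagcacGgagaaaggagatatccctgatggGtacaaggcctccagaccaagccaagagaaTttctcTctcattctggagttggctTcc
Trbv13-2: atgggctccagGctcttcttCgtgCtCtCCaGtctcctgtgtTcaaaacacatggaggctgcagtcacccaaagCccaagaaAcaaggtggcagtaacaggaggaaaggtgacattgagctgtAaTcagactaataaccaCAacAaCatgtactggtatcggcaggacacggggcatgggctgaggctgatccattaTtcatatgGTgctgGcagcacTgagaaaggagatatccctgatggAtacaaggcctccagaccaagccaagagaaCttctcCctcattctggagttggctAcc
The coding parts differed at 32 of 340 bases (90.6% identity), and none of the 90-base stretches of Trbv13-3 occurred in Trbv13-2. Trbv13-2 was carried by 13 of the parous (6.22%) and 18 of the virgin members (6.77%), and the third segment of the group, Trbv13-1, by 6 (2.87%) and 21 (7.89%), so neither shared the high parous share of Trbv13-3.

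The Trbv13-3 members did not share 1 alpha chain as far as it was seen. An alpha chain segment was assigned in 6 of the 38 parous cells, to 5 different segments, with Trav9-2 in 2 cells. Over all members with both chains assigned, 76 parous and 158 virgin cells, the most common pair was Trbv31 with Trav5-4 in 6 parous cells and Trbv3 with Trav8n-2 in 8 virgin cells. By expression the parous Trbv13-3 members, with 190219 UMIs, stood near the other assigned parous members in Ly6c2 (1940 against 2444 CPM), Ccr7 (205 against 221 CPM), Cd69 (379 against 371 CPM) and Ifng (199.8 against 212 CPM), and below them in Klrk1 (84.1 against 227 CPM).

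**Figure D5:**
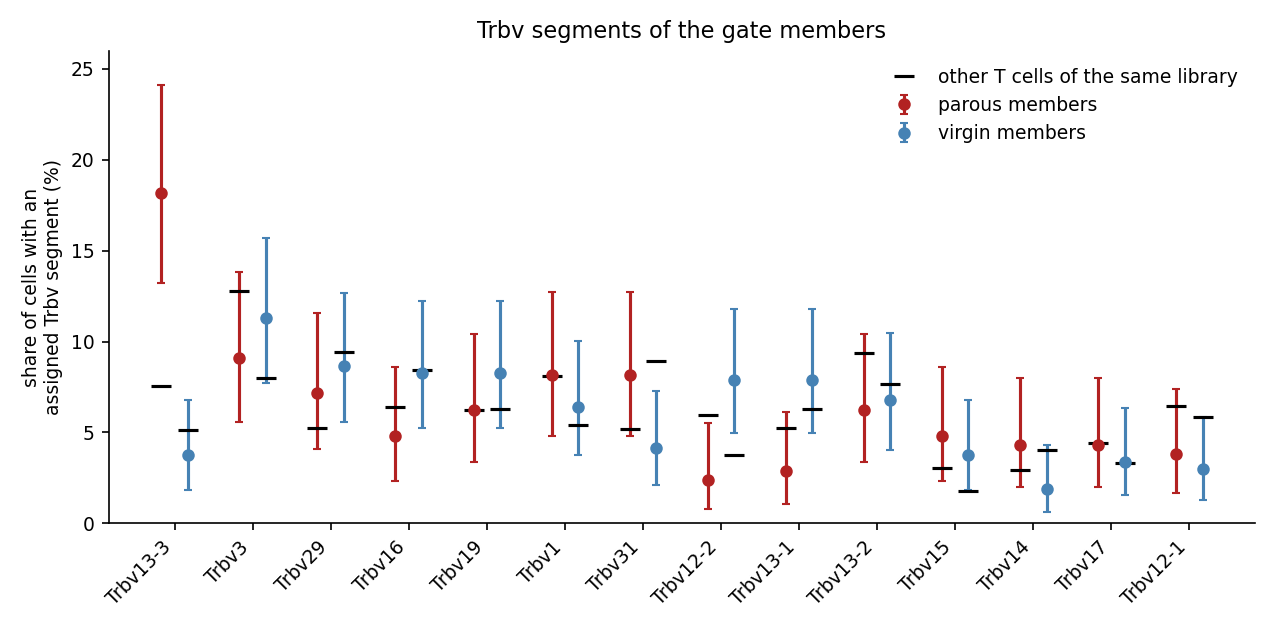
Share of cells with an assigned Trbv segment (y axis, percent) that carried each of the 14 most common segments of the members (x axis), for parous (red) and virgin (blue) members with exact 95% intervals; black ticks are the other T cells of the same library. The parous Trbv13-3 point (18.2%) lies above its tick (7.56%) with an interval from 13.2%.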

How the data were processed

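Single-cell RNA of 1 parous and 1 virgin library was captured with the 10x 5′ v2 chemistry, per the labels' protocols. Each deposited matrix holds whole-number UMI counts, unnormalized; the submitters' processing notes list Cell Ranger 7.0.0, mm10, R 4.4.2 and Seurat. No source used here gives the cell calling settings. The cell filter, T cell rule and member rule were applied to these counts, and doublets were not called. UMIs were summed per set and library and divided by the total (CPM). For log2 ratios 0.5 was added to both counts, their intervals are exact conditional ones, and list genes needed 10 UMIs over both sets. Shares have Clopper-Pearson intervals. Thinning drew UMIs without replacement for fixed depths and binomially for the virgin library (58.8% kept). The ratios were tested on simulated counts.

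Members and gene lists were chosen with earlier results of these data known. Named genes were the 12 largest and 12 smallest ratios among genes reaching 20 CPM and 30 UMIs in 1 library, or, against other T cells, 50 CPM in both, without receptor, ribosomal, mitochondrial and unnamed genes and the 14 rule genes, plus a fixed set and the genes of 24 lists. Of 592 list entries 589 matched a symbol. A few genes that these rules name or use are not reported here. Genes of the division by Gzmk and Ccr7 were named after their values were seen. Positions are from GENCODE on GRCm38. Alternatives changed scaling, weight per cell, depth, filter, the rule's parts, added count, minimum UMIs, comparison set and segment assignment. Software was Python (3.11.15) with pandas (2.3.3), scipy (1.17.1), numpy (2.4.6) and matplotlib (3.10.9).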

Additional observations from a re-analysis of the deposited data

Results flagged for a closer look

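The Ly6c2 rule was also met by 9 of the 1908 parous barcodes that had failed the cell filter, against 0 of 15 virgin ones. They lie outside the comparisons, and what these barcodes hold was not tested.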

How the results depend on the processing

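The share of T cells that met the rule was lower in the parous library under the rule as given and in the 9 other settings tried. For genes and lists, leaving out dividing members (a Mki67, Top2a or Ccna2 UMI) or members without a Cd8a or Cd8b1 UMI was chosen after seeing the data. Parous and virgin shares were 17.3% and 21.4% with at least 1 of the 4 genes, 3.08% and 4.69% with at least 3, 3.59% and 4.51% at 1400 UMIs, 16.9% and 26.9% with no excluded genes, and 10.2% in the virgin library thinned to the parous depth. Genes higher and lower in parous members numbered 725 and 1630, 245 and 663 with at least 50 UMIs, and 2337 and 3671 with no minimum. The interferon list's median was -0.57 with equal weight per cell and -0.035 with at least 3 of the 4 genes, and that of the naive and recirculation list -0.26 with virgin UMIs thinned and -0.31 with at least 3. The cell cycle list's median was 0.49 with virgin UMIs thinned, 0.53 with at least 3, 0.18 with at least 50 UMIs, 1.36 with no minimum and 0.19 without dividing members. With at least 3 of the 4 genes, Ifit3 (0.47) and Pmepa1 (-0.13) turned direction. Against naive-like cells instead of other T cells, the log2 ratios of Gzma (3.55 parous, 6.51 virgin), Gzmb (4.21 and 6.70) and Fgl2 (4.04 and 8.34) turned, as did parous Hist1h1c (0.19) and Xcl1 (5.48). Where no value above shows it, the cause was not tested. No paired analysis was possible because each group has 1 library. With every T cell thinned to 1400 UMIs, 103 parous and 112 virgin cells met the rule. The interval of the ratio of their shares spans equality at these smaller counts.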
